A study of Mus musculus with 8 samples.

Results

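The regulators of trophoblast stem cells described here are 9 genes: Elf5, Cdx2, Tfap2c, Ets2, Esrrb, Wnt7b, Sox21, Nrk and Tead4. They were chosen by symbol for their known roles in the extraembryonic ectoderm, with earlier results of these data known. All 9 were found among the 21182 symbols of the deposited table, Tfap2c under its older symbol Tcfap2c. RNA sequencing was carried out on whole mouse embryos, each lysed on its own, at embryonic day E6.75 on the C57BL/6 background. The 4 Control embryos are named 123WT in the sample descriptions, and the other 4 are labelled as triple knockouts (TKO) of the methylcytosine dioxygenases Tet1, Tet2 and Tet3. The labels do not name the alleles, the mating, a litter or a sex. The tests below set the difference between the groups only against the spread among these 8 embryos. They cannot tell group from an unnamed litter, mating or sex. Expression is given in RPKM, a read count scaled to gene length in kilobases and to 1000000 mapped reads, and depth estimated from the smallest values was 9.90 to 18.96 M reads per embryo (M for 1000000).

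The extraembryonic ectoderm is the trophoblast layer that caps the epiblast after implantation. Its stem cells are held by FGF4 from the epiblast acting through FGFR2, and by a circuit of transcription factors in which Cdx2, Eomes, Elf5, Tfap2c and Ets2 sustain each other. The layer in turn sends BMP4 and proprotein convertases to the epiblast, and at its outer end it passes into the ectoplacental cone and trophoblast giant cells. The Elf5 promoter is known for being methylated in the embryonic lineage and unmethylated in the trophoblast lineage, which links this circuit to the DNA methylation that TET enzymes oxidise. The comparison of the 2 groups addresses whether transcript levels of the circuit differ in embryos labelled as lacking these enzymes.

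The sequence before the transcription start is shown for Elf5, for its methylation-dependent promoter, and for Cdx2, an upstream homeobox gene of the circuit. The RefSeq promoter table used here (build GRCm38.p6) holds windows for 6 of the 9 genes, Elf5, Cdx2, Esrrb, Sox21, Ets2 and Nrk, with 8 starts between them. Each sequence below holds the 250 bases before a start, 5′ to 3′ on the strand of the gene, with CpG dinucleotides, the sites at which methylation and its oxidation occur, in capitals.
Elf5, first start, chr2:103411848-103412097, plus strand: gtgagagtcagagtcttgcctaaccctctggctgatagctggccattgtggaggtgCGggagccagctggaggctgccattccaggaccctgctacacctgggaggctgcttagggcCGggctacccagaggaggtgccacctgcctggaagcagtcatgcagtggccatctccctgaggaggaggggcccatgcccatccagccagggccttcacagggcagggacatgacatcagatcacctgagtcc
Elf5, second start, chr2:103423818-103424067, plus strand: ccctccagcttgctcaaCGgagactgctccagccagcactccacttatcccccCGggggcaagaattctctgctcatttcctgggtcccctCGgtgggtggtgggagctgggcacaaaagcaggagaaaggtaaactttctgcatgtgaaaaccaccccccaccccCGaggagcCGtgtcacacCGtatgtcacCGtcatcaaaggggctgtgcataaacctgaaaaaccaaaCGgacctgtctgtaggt
Cdx2, chr5:147307250-147307499, minus strand: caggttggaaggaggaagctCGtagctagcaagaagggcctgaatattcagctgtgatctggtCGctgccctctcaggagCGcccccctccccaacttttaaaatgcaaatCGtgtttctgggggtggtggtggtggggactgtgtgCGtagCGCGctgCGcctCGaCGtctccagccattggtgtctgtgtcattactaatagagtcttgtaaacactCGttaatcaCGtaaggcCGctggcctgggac
The first Elf5 window holds 2 CpG and the second 8, while the Cdx2 window holds 13. Windows with at least as many make up 81.2%, 43.0% and 31.5% of all 32851 RefSeq windows of this length, whose median is 6 CpG. Among the other genes with a window, Esrrb has 6 and 3 CpG at its 2 starts, Sox21 17, Nrk 24 and Ets2 25. The AP-2 motif GCCNNNGGC occurs on either strand in the windows of Cdx2 and Sox21, and in 13.7% of all windows. The TEAD motif GGAATG is found in the first Elf5 window (12.6% of all windows) and the CDX motif TTTATG in the second (10.8% of all windows), both motifs being searched on both strands. The orphan receptor motif AAGGTCA, also searched on both strands, is in 0 of the 8 windows and in 4.08% of all windows. No methylation was measured in these embryos, so the windows describe the genes and not their state.

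The targeted genes were read first. Tet1 stood at 4.93 to 5.76 RPKM across Control and at 9.21 to 15.3 RPKM in TKO embryos (exact permutation p = 0.0286, limma adjusted p = 0.103). Its value was thus not lower in the embryos labelled as lacking it. Tet2 averaged 0.725 ± 0.189 and 0.784 ± 0.172 RPKM, and Tet3 1.85 ± 0.16 and 1.38 ± 0.25 RPKM (SD, n = 4 each). Tet3 was lower in all 4 TKO embryos, at 1.14 to 1.68 RPKM against 1.73 to 2.08 RPKM in Control (exact permutation p = 0.0286, limma adjusted p = 0.297). One value per gene does not show whether the deleted exons are missing, and the embryos are called TKO-labelled below. Differences were tested with limma on log2(RPKM + 1) over the 10451 genes that had at least 1 RPKM in at least 4 embryos, with Benjamini-Hochberg adjustment over those genes. A log2 difference is TKO-labelled minus Control on that scale, on which changes of low genes come out too small. In that fit 1 gene passed the adjusted threshold of 0.05 (0.00957% of those tested), none of the 9, and 1824 genes (17.5%) had an unadjusted p under 0.05.

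All 9 regulators passed the filter on low values, and 0 of them passed the adjusted threshold, with limma adjusted p-values of 0.264 to 0.944. Elf5 alone had an unadjusted limma p under 0.05, 1 gene or 11.1% of the 9, which is below the background of 17.5%. For each of the 9 genes the values of the 2 groups overlapped, whereas groups were apart for 9.41% of tested genes (7.55% higher and 1.86% lower in TKO-labelled embryos). Log2 differences were negative for 7 of the 9 and positive for Cdx2 and Nrk, with a median of -0.19, where 33.5% of all tested genes had a negative difference and the median was 0.09. In whole embryos a lower level of these genes, where there is one, can come from a smaller share of extraembryonic ectoderm cells or from less RNA per cell. These cannot be told apart here.

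**Figure D1:**
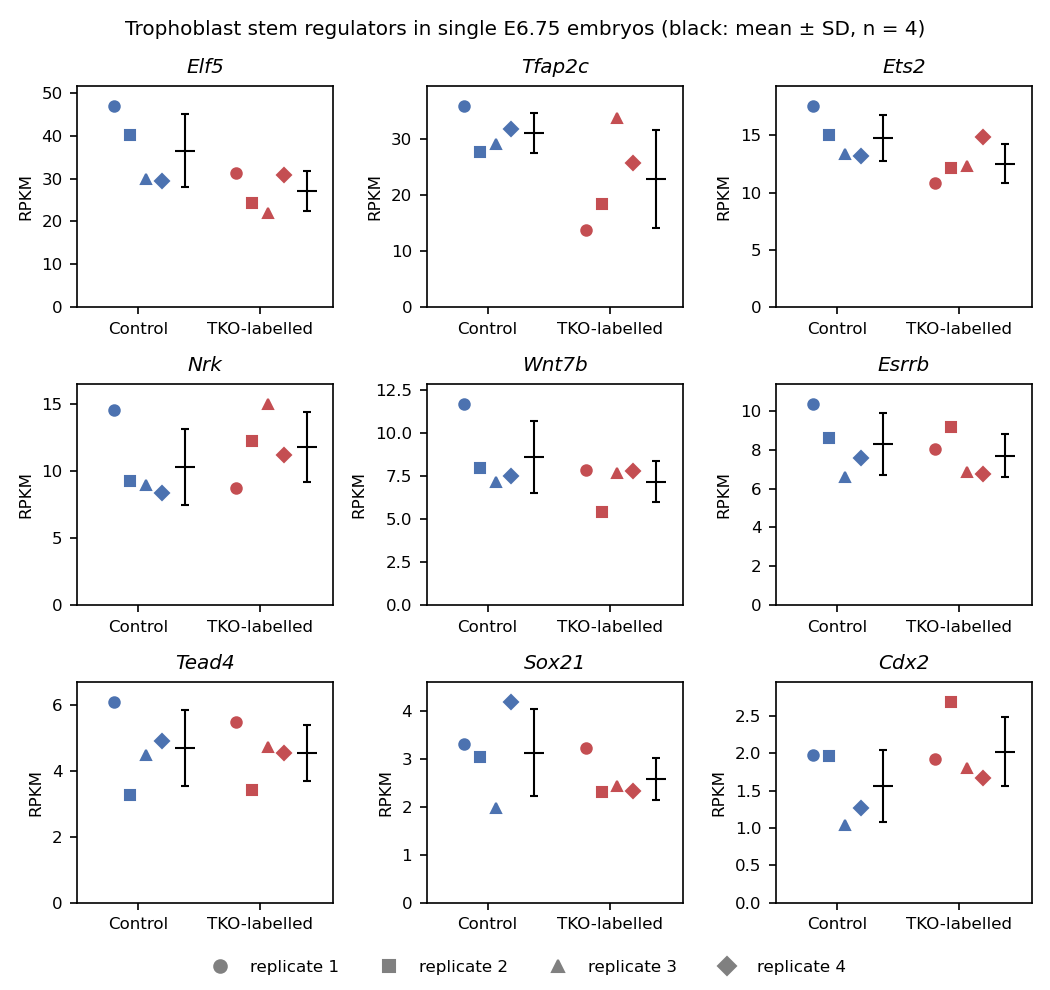
RPKM (vertical axis, from 0) of each of the 9 genes in each embryo, ordered by their Control mean from Elf5 to Cdx2, with Control embryos in blue, TKO-labelled embryos in red, 1 symbol shape per replicate number and the mean ± SD of each group in black (n = 4). Control replicate 1 is the highest Control embryo for 8 of the 9 genes, and the groups overlap in every panel.

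The genes covered a wide range of levels in the Control embryos, from 36.5 RPKM for Elf5 to 1.56 RPKM for Cdx2. Elf5 was followed by Tfap2c at 31.1, Ets2 at 14.8, Nrk at 10.3, Wnt7b at 8.57, Esrrb at 8.30, Tead4 at 4.69 and Sox21 at 3.13 RPKM. Among the genes tested, Elf5 lay at the 82.8th percentile of Control levels and Cdx2 at the 9.56th. Steps between neighbours without overlap among Control embryos were those from Tfap2c to Ets2, from Esrrb to Tead4 and from Sox21 to Cdx2. Elf5 and Tfap2c overlapped, Elf5 being higher in 6 of the 8 embryos, and Wnt7b and Esrrb could not be ordered, Wnt7b being higher in 4 of 8.

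Elf5, the ETS factor that marks committed trophoblast stem cells, stood at 46.9, 40.04, 29.9 and 29.4 RPKM in Control replicates 1 to 4 and at 31.2, 24.2, 22.1 and 30.8 RPKM in TKO-labelled replicates 1 to 4. Replicates 2 and 3 of the TKO-labelled embryos lay below all Control embryos, and replicates 1 and 4 lay among the lower Control values. The means were 36.5 ± 8.48 and 27.1 ± 4.63 RPKM (SD, n = 4 each), a log2 difference of -0.41 (95% confidence interval, CI, -0.79 to -0.02). The unadjusted limma p of 0.0405 became 0.264 on adjustment, and its exact two-sided permutation p was 0.171, where 0.0286 is the smallest that 4 against 4 embryos allow. Without Control replicate 1 its log2 difference was -0.28, and with the parietal endoderm level as a covariate it was -0.10. That level was higher in TKO-labelled replicates 2 to 4 than in any Control embryo. Fits with it, here and for the genes below, cannot tell group from marker level.

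Tfap2c encodes AP-2 gamma, which is needed for trophoblast development and is also made in primordial germ cells and ectoplacental cone. It was measured at 35.8, 27.6, 29.1 and 31.7 RPKM in the Control embryos and at 13.7, 18.3, 33.6 and 25.7 RPKM in the TKO-labelled embryos. Of the latter, 3 lay below each Control embryo and replicate 3 lay within the Control range. Its SD was 3.58 RPKM around a mean of 31.1 among Control and 8.72 RPKM around 22.9 among TKO-labelled embryos. The log2 difference of -0.49 (95% CI -0.999 to 0.010, limma adjusted p = 0.297, exact permutation p = 0.143) was the lowest of the 9. It moved to -0.29 without TKO-labelled replicate 1, to -0.70 without TKO-labelled replicate 3 and to -1.12 with the parietal endoderm covariate.

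The ectoplacental cone factor Ascl2, a bHLH gene of diploid trophoblast, was low in the same pair of embryos. It stood at 13.7, 10.4, 15.3 and 14.8 RPKM across Control and at 6.31, 2.93, 16.6 and 14.6 RPKM in TKO-labelled embryos, so that TKO-labelled replicates 1 and 2 were lowest for both Ascl2 and Tfap2c, a match picked out after the values were seen. Of the 8 tested genes of its list 3 had negative and 5 positive differences, with a median of 0.18. Hand1, another trophoblast bHLH gene of that list, was highest in TKO-labelled replicate 1 (5.10 RPKM) and lowest in replicate 2 (1.89 RPKM). The part of the ectoplacental cone in the Tfap2c values was not tested.

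Ets2, an ETS factor that acts downstream of FGF signalling in trophoblast stem cells, stood at 17.5, 15.04, 13.3 and 13.2 RPKM across Control and at 10.8, 12.2, 12.3 and 14.8 RPKM in TKO-labelled embryos. Replicates 1 to 3 of the TKO-labelled embryos were below all Control embryos, and replicate 4 was inside their range. Its log2 difference was -0.22 (95% CI -0.51 to 0.07, limma adjusted p = 0.398), and -0.14 without Control replicate 1. The interval was the narrowest of the 9 genes.

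Cdx2, the caudal homeobox gene that specifies trophectoderm, was the lowest of the 9 genes. It was listed at 1.97, 1.96, 1.04 and 1.26 RPKM across Control and at 1.93, 2.69, 1.81 and 1.67 RPKM in TKO-labelled embryos. TKO-labelled replicate 2 lay above all Control embryos and the other 3 lay inside the Control range. The log2 difference was 0.25 (95% CI -0.12 to 0.62, limma adjusted p = 0.465), and it was 0.14 without Control replicate 3 and 0.15 without TKO-labelled replicate 2. At the length of its annotated transcript and the estimated depths, the values stand for an estimated 29.3 to 86.2 reads per embryo.

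Esrrb, an orphan nuclear receptor of trophoblast stem cells and of naive pluripotent cells, stood at 10.4, 8.62, 6.62 and 7.58 RPKM across Control and at 8.03, 9.16, 6.88 and 6.76 RPKM in TKO-labelled embryos. All 4 TKO-labelled embryos lay within the Control range. Its log2 difference was -0.09 (95% CI -0.42 to 0.24, limma adjusted p = 0.784), from -0.18 without Control replicate 3 to 0.014 without Control replicate 1. Cdx2 and Esrrb put the embryos in the same order in both groups, replicates 1, 2, 4 and 3 from high to low in Control and replicates 2, 1, 3 and 4 in TKO-labelled embryos. It was 1 of 36 pairs (2.78%) to do so, against 0.282% of all pairs of tested genes, and it was picked out after its values were seen.

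Tead4, the TEAD factor through which YAP acts in the trophectoderm, stood at 6.10, 3.28, 4.48 and 4.91 RPKM across Control and at 5.47, 3.41, 4.72 and 4.54 RPKM in TKO-labelled embryos. Each TKO-labelled embryo lay inside the Control range, and the log2 difference was -0.03 (95% CI -0.41 to 0.35, limma adjusted p = 0.944), from -0.16 without Control replicate 2 to 0.084 without Control replicate 1. Sox21, a SoxB2 factor, stood at 3.31, 3.04, 1.98 and 4.19 RPKM and at 3.24, 2.32, 2.43 and 2.33 RPKM, again with all TKO-labelled embryos inside the Control range. Its log2 difference was -0.19 (95% CI -0.57 to 0.20, limma adjusted p = 0.597), and it moved to -0.34 without Control replicate 3 and to -0.07 without Control replicate 4. For these genes and Esrrb the intervals include 0, and they do not show that the levels were alike.

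Wnt7b, a secreted Wnt ligand, stood at 11.7, 7.96, 7.16 and 7.48 RPKM across Control and at 7.85, 5.37, 7.64 and 7.81 RPKM in TKO-labelled embryos. TKO-labelled replicate 2 was below all Control embryos and the other 3 lay close together inside their range. The log2 difference was -0.22 (95% CI -0.59 to 0.15, limma adjusted p = 0.520), and it was -0.08 without Control replicate 1 and -0.10 without TKO-labelled replicate 2. Nrk, an X-linked Ste20-type kinase of the trophoblast, stood at 14.6, 9.28, 9.01 and 8.39 RPKM across Control and at 8.73, 12.3, 15.04 and 11.2 RPKM in TKO-labelled embryos. The high Control value was replicate 1 and the high TKO-labelled value replicate 3, above all Control embryos. Its log2 difference was 0.19 (95% CI -0.24 to 0.61, limma adjusted p = 0.637), and it changed sign, to -0.17, with the parietal endoderm covariate. It was 0.35 without Control replicate 1 and 0.07 without TKO-labelled replicate 3.

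**Figure D2:**
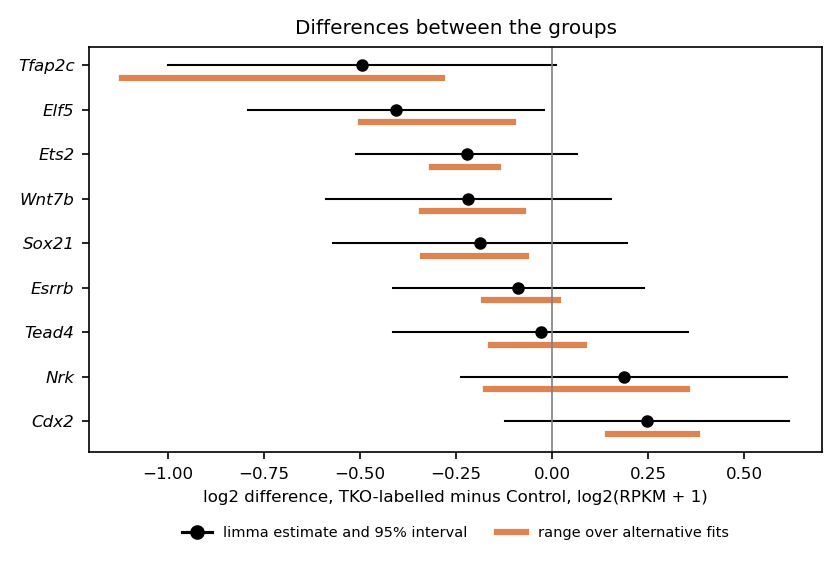
Log2 difference of each gene (horizontal axis, TKO-labelled minus Control on log2(RPKM + 1)) with its 95% CI from limma in black and, in orange, the range of the difference over the alternative fits. The intervals include 0 for all genes but Elf5, which ends at -0.02, and the orange ranges of Esrrb, Tead4 and Nrk reach both sides of 0.

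Control replicate 1 stood high among the Control embryos and moved the mean difference of the 9 genes. It was the highest Control embryo for 8 of the 9 genes, all but Sox21, and the summed level of the 9 genes was 148 RPKM in it against 103 to 117 RPKM in the other Control embryos and 89.9 to 107 RPKM in TKO-labelled embryos. The mean log2 level was 3.32 ± 0.22 for Control and 3.19 ± 0.06 for TKO-labelled embryos (SD, n = 4 per group), and the mean difference of -0.13 became -0.03 without that embryo. Single genes moved unequally when it was left out. The log2 difference went from -0.49 to -0.43 for Tfap2c, from -0.41 to -0.28 for Elf5 and from 0.19 to 0.35 for Nrk. The same embryo had the highest sum of visceral endoderm markers, 4948 RPKM against 2266 to 3742 RPKM in the other Control embryos, and the lowest sum of epiblast markers among Control embryos, 562 against 650 to 812 RPKM. Its sums of other extraembryonic ectoderm genes (494 against 350 to 392 RPKM) and of ectoplacental cone and giant cell genes (324 against 191 to 216 RPKM) were also the highest among Control embryos. Most of the last sum was Cited1, at 219 RPKM in Control replicate 1 and at 111 to 127 RPKM in the other Control embryos. Of the same list Hand1 and Plac1 were also highest in Control replicate 1, while Ascl2, Krt7, Mmp9 and Prl3d1 were highest in Control replicate 3. Fgf5, an epiblast gene, was at 21.5 RPKM in Control replicate 1 and at 33.5 to 35.2 RPKM in the other Control embryos. The part of these marker levels in the 9 genes was not tested.

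Ratios between 2 of the genes within an embryo do not depend on the scale of a library. Of 36 ratios, 3 did not overlap between the groups, 8.33% against 7.94% of all pairs of tested genes above 0 in each embryo, a share near the background. The mean of Elf5 over Cdx2 was 24.0 ± 3.39 for Control and 14.0 ± 4.21 for TKO-labelled embryos (SD, n = 4 each). Cdx2 over Esrrb was 0.186 ± 0.031 and 0.261 ± 0.024, and Tfap2c over Nrk 3.11 ± 0.55 and 1.90 ± 0.42. These ratios were picked out after their values were seen and were given no test.

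Other genes of the extraembryonic ectoderm were described from a list of 16, of which 15 were in the table and were tested. At the adjusted threshold 0 of them passed. At an unadjusted limma p under 0.05, 3 were higher and 1 was lower in TKO-labelled embryos (13.9% and 3.6% of all tested genes), and the median log2 difference was -0.07. Eomes, the T-box partner of Cdx2 and Elf5, had means of 51.7 ± 10.2 RPKM (Control) and 53.03 ± 12.4 RPKM (TKO-labelled), a log2 difference of 0.03 (limma adjusted p = 0.951, sign changed to -0.06 by median-ratio scaling). Sox2 averaged 13.8 ± 2.40 and 13.2 ± 3.24 RPKM, and Gata3, a trophoblast GATA factor, 3.65 ± 0.71 and 3.47 ± 0.30 RPKM. Sox2 is also an epiblast gene, so its level is not that of the extraembryonic ectoderm alone. The epiblast-directed signal Bmp4 averaged 14.4 ± 3.78 and 18.0 ± 8.77 RPKM, with 30.6 RPKM in TKO-labelled replicate 1, and its log2 difference of 0.23 became -0.05 without that embryo. Fgfr2, the receptor of the FGF signal that maintains these stem cells, stood at 11.5, 10.01, 9.08 and 11.7 RPKM across Control and at 9.10, 7.28, 7.17 and 7.83 RPKM in TKO-labelled embryos. Only TKO-labelled replicate 1 reached the Control range, just above its lowest value, and the log2 difference was -0.39 (95% CI -0.65 to -0.12, limma p 0.00930 before and 0.185 after adjustment). The homeobox gene Rhox6 stood higher instead, at 16.5 ± 4.96 and 29.9 ± 9.52 RPKM, with a limma adjusted p of 0.170.

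Of the FGF and ERK pathway, 15 listed genes were all tested, with 0 past the adjusted threshold and a median log2 difference of 0.10. At an unadjusted limma p under 0.05, 2 were higher and 1, Fgfr2, was lower (13.9% and 3.6% of all tested genes). Fgf4, the ligand made by the epiblast, stood at 2.30 to 4.83 RPKM across Control and at 12.8, 2.07, 2.26 and 5.59 RPKM in the TKO-labelled ones. Replicate 1 of the latter was high and replicates 2 and 3 were below all Control embryos (log2 difference 0.28, limma adjusted p = 0.757). The ERK feedback inhibitor gene Dusp6 overlapped between the groups, with log2 difference 0.10 (limma adjusted p = 0.784), and was lowest, at 26.4 RPKM, in TKO-labelled replicate 3. Fgf4 and Dusp6 were named after their values were seen.

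In the Hippo pathway, which controls YAP at TEAD factors, 15 of 16 listed genes were tested and 0 passed the adjusted threshold. The median log2 difference was 0.07, and 1 gene, Sav1, was lower at an unadjusted limma p under 0.05 (3.6% of all tested genes). Tead2 was the most abundant TEAD gene, at 62.9 to 72.4 RPKM in Control and 60.3 to 85.2 RPKM in TKO-labelled embryos, many times the level of Tead4. Sav1, the scaffold of the Hippo kinases, averaged 7.85 ± 0.93 and 5.74 ± 1.49 RPKM (log2 difference -0.41, limma adjusted p = 0.239). Amot, a YAP-binding angiomotin and the other leading gene, averaged 102 ± 13.6 and 115 ± 7.18 RPKM (0.18, limma adjusted p = 0.443).

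Relatives of the 9 genes were mostly near 0. Of 18 listed family members 6 passed the filter, and 0 of those passed the adjusted threshold. Esrra alone was lower at an unadjusted limma p under 0.05 (3.6% of all tested genes). Cdx1 and Cdx4 were at most 0.241 and 0.296 RPKM in any embryo, Tfap2a at most 0.490 RPKM, Wnt7a at most 0.066 RPKM and Esrrg at most 0.080 RPKM. Cdx2, Tfap2c and Wnt7b were thus the highest of the listed members of their families in each embryo. Elf3, another epithelial ETS gene, averaged 18.0 and 19.1 RPKM. Esrra, a relative of Esrrb that regulates mitochondrial genes, stood at 12.6 to 14.8 RPKM across Control and at 10.05 to 11.0 RPKM in TKO-labelled embryos, without overlap (1.86% of tested genes are lower in this way). Its log2 difference was -0.34 (95% CI -0.56 to -0.13), with a limma p of 0.00509 before and 0.173 after adjustment and an exact permutation p of 0.0286. Elf1, an ETS factor, averaged 2.37 ± 0.50 and 3.13 ± 1.07 RPKM (0.27, limma adjusted p = 0.502).

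Summed levels of markers of other tissues varied between the embryos. All 10 parietal endoderm markers had positive differences, 9 with an unadjusted limma p under 0.05 and 0 past the adjusted threshold. Of all tested genes 66.5% had a positive difference, and 13.9% were higher at an unadjusted limma p under 0.05. The summed level of these markers was 145 to 289 RPKM in Control and 258 to 858 RPKM in TKO-labelled embryos. Nid1 and Sparc, their leading members, had log2 differences of 1.64 and 1.18. Sums of epiblast markers were 562 to 812 and 608 to 1196 RPKM, those of visceral endoderm markers 2266 to 4948 and 2275 to 4080 RPKM, and those of 14 ectoplacental cone and giant cell genes, which include the ambiguous symbol Stra13, 191 to 324 and 204 to 516 RPKM. Tpbpa, which defines the spongiotrophoblast lineage, was at 0.58 RPKM or less, and Ctsq and Prl3b1 at 0.086 RPKM or less in each embryo. Decidua markers of the mother summed to 16.2 to 505 RPKM in Control and 38.1 to 436 RPKM in TKO-labelled embryos, and 6 blood markers found in the table to 0.951 to 32.0 and 0.560 to 23.3 RPKM. Leading genes by unadjusted p in these lists were Ascl2 and Krt7, Pou5f1 and Fgf5, Apoa1 and Rbp4, Hand2 and Dio3, and S100a8 and S100a9, all with limma adjusted p-values of 0.160 or more. In the fits with 3 list levels as covariates 0 of the 9 passed the adjusted threshold. The mean log2 level of the parietal endoderm list was 2.99 to 4.10 in Control and 5.02 to 5.77 in TKO-labelled replicates 2 to 4. The fit with that covariate thus cannot tell group from marker level. The part of these markers in the 9 genes was not tested.

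**Figure D3:**
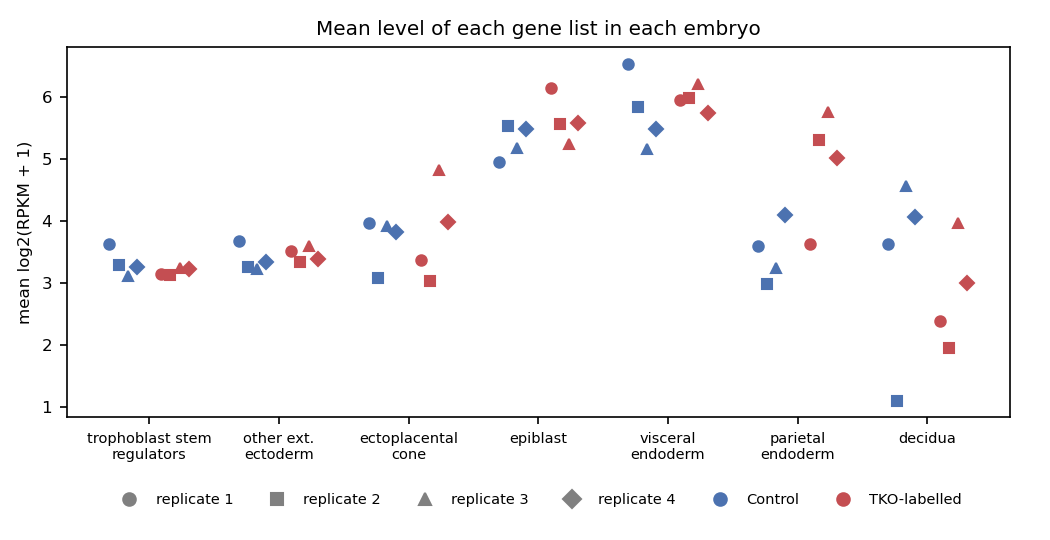
Mean log2(RPKM + 1) (vertical axis) of the tested genes of 7 lists in each embryo, with Control embryos in blue, TKO-labelled embryos in red and 1 symbol shape per replicate number. The 9 regulators lie between 3.12 and 3.63, and the parietal endoderm and decidua lists spread more widely between embryos.

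The 5 genes whose pattern over the 8 embryos was most like the mean of the 9 regulators, after each group's mean was subtracted, were Tdh (Pearson r 0.99), Dpp7 (0.98), Tmem37 (0.97), Neu1 (0.97) and Scpep1 (0.97), among 6136 genes of at least 5 RPKM on average. Tdh encodes threonine dehydrogenase, and Neu1 the lysosomal sialidase. Control replicate 1 was the highest Control embryo for each of the 5, with Tdh at 35.1 RPKM in it and at 18.98 to 21.6 RPKM in the other Control embryos. With so many genes and 8 embryos that share 1 high library, these values are a description.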

How the data were processed

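Whole E6.75 embryos were sequenced singly, 4 per group. The deposited table holds RPKM values computed by the authors. Per the submitters' processing notes, HTSeq (no version) and build mm9 were used. The sources used here name no aligner, annotation or strand setting. Symbols were matched directly or through RefSeq synonyms. No 2 columns shared more than 0.0692% of their values above 1 RPKM. Read totals were estimated from low values of genes with 1 GENCODE M21 transcript. The total taken was that at which the largest share of them came near 1 to 3 whole reads. That share was 30.9% to 38.4% per embryo, against a median of 1.13% to 1.59% over all totals tried. Depth per gene is thus an estimate, and no count test was run.

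limma 3.58.1 in R 4.3.3 was fitted without block or covariate on log2(RPKM + 1) of genes with at least 1 RPKM in at least 4 of 8 embryos (variance trend, two-sided, Benjamini-Hochberg over 10451 genes, threshold 0.05), and was tested on simulated data. Single values were also compared by exact permutation over 70 assignments. Named genes are the 9, always-named partners (Eomes, Sox2, Gata3, Bmp4, Fgfr2), the TET genes, the members of each list past the threshold or else the 2 with the smallest p, and the 5 genes most like the 9. Other genes named (Tead2, Elf3, Cdx1, Cdx4, Tfap2a, Wnt7a, Esrrg, Hand1, Cited1, Plac1, Mmp9, Prl3d1, Tpbpa, Ctsq, Prl3b1, Fgf4 and Dusp6) were chosen after their values were seen. The members and lists were chosen with earlier results of these data known. Of 1 listed symbol, Stra13, it is not known which of 2 genes the table means, so its own value is not given, but it counts in its list's sums and tallies. Alternatives were other pseudocounts (0.1, 0.5), filters, median-ratio scaling, no variance trend, 3 covariates, a replicate block and each embryo left out. Figures were drawn with matplotlib 3.10.9.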

Additional observations from a re-analysis of the deposited data

Results flagged for a closer look

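Of 78 groups of 4 embryos checked for a value far from the other 3, 8 had one. The rule flags about 1 in 20 groups of normally distributed values, and the share over all tested genes was not computed. Some of the checked genes were chosen from these values, Tdh for its likeness to the 9 regulators. The count is thus not read as an excess. Among the 9 regulators, Wnt7b was low in TKO-labelled replicate 2 (5.37 RPKM), Sox21 was high in TKO-labelled replicate 1 (3.24 RPKM) and Nrk was high in Control replicate 1 (14.6 RPKM). Control replicate 1 also stood apart for Fgf5, low at 21.5 RPKM, Rbp4, a retinol carrier of visceral endoderm, high at 52.9 RPKM, and Tdh, high at 35.1 RPKM. S100a8, a neutrophil gene, was high in TKO-labelled replicate 3 (18.7 RPKM), and Tet2 was low in Control replicate 2 (0.444 RPKM).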

How the results depend on the processing

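Over 18 alternatives 0 of the 9 regulators passed the adjusted threshold (limma adjusted p 0.182 to 0.991), and 156 of 161 differences kept their sign. The other 5 were Esrrb without Control replicate 1 (-0.18 to 0.014 with 1 embryo left out), Nrk with the parietal endoderm covariate (-0.17), and Tead4 without Control replicate 1 or TKO-labelled replicate 2 (-0.16 to 0.084) and with the parietal endoderm covariate (0.011); their cause was not tested. Cdx2 was not tested with a filter of 2 RPKM. The filters, the fit without variance trend and the replicate block leave each difference as it was. No sign could change in those fits. The mean difference of the 9 genes was -0.20 to -0.03 with 1 embryo left out. Of the 9, genes whose groups did not overlap numbered 0 or 1 with 1 embryo left out, namely Tfap2c without TKO-labelled replicate 3 and Ets2 without TKO-labelled replicate 4. Leaving an embryo out can only add genes to this count. The share over all tested genes was not computed for that setting, so the count is not read as a result about the 9. The differences of the 3 ratios with 1 embryo left out were added after the data were seen. They were log2 -0.97 to -0.63 for Elf5 over Cdx2 and 0.43 to 0.60 for Cdx2 over Esrrb. For Tfap2c over Nrk they were -0.83 to -0.62. Their signs could not change, because the groups of these ratios do not overlap.

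Over all genes the count past the threshold, 1, was 0 with no filter, with the replicate block and with the covariates of other extraembryonic ectoderm or visceral endoderm genes, 2 with the filter of 2 RPKM, 3 with the parietal endoderm covariate, and 0 to 40 with 1 embryo left out, the 40 without TKO-labelled replicate 1. Without that embryo Nid1, Sparc and Tet1 passed the adjusted threshold, with log2 differences of 2.00, 1.45 and 0.83. Same-numbered embryos did not deviate together in every pair (r over genes of -0.0045, 0.40, 0.26 and -0.021 for numbers 1 to 4), so the numbers were not taken as pairs, and 0 of the 9 passed with the replicate block. Median-ratio scaling moved the share of higher genes at an unadjusted p under 0.05 from 79.4% to 55.5%, and the mean difference of the 9 to -0.21.

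Signs of other named genes changed for Eomes with median-ratio scaling (-0.056) and with the covariates of other extraembryonic ectoderm (-0.0013) and visceral endoderm genes (-0.058), for Sox2 with the former covariate (0.0066), for Dpp7 with both (-0.024 and -0.018), and for Elf1 with the parietal endoderm covariate (-0.27). With 1 embryo left out the signs also changed for Eomes (-0.11 to 0.14), Sox2 (-0.21 to 0.047), Gata3 (-0.14 to 0.038), Bmp4 (-0.046 to 0.39) and Neu1 (-0.37 to 0.034). The cause was not tested. At the estimated depth Cdx2 had the lowest estimate of the 9 genes, with 29.3 to 86.2 reads per embryo. Its range overlaps that of Tead4, 83.0 to 360 reads, so it need not have the fewest in every embryo.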
